A study of Mus musculus with 5 samples.

Results

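The granzymes and cytolytic effectors were 10 genes, Gzma, Gzmb, Gzmc, Gzmd, Gzme, Gzmf, Gzmk, Prf1, Nkg7 and Fasl, chosen by symbol among the 31053 genes counted. They were followed in 15 mammary tumors of MMTV-PyMT mice, the strain FVB/N-Tg(MMTV-PyVT)634Mul/J, whose tumors arise from polyoma virus middle T antigen placed under the promoter of mouse mammary tumor virus, which is active in mammary epithelium. From 7 weeks of age, and for 6 weeks, 9 mice received the anti-VEGF-A antibody B20-4.1.1 and 6 received the isotype control mouse IgG2a (clone C1.18.4), each at 5 mg/kg into the peritoneum, 2 doses a week. One tumor per mouse was dissociated, sorted as DAPI- without enrichment for leukocytes, labelled with multiplexing oligonucleotides and profiled by droplet single-cell RNA sequencing in pools of 3 tumors of 1 treatment (2 isotype and 3 B20-4.1.1 pools, numbered here in order of deposit). Pool and treatment therefore cannot be told apart, and no comparison within a pool was possible.

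Cytotoxic lymphocytes kill by 2 routes. In the granule route, perforin (Prf1) opens the target membrane to granzymes, serine proteases stored on serglycin and activated by cathepsin C; Nkg7 is a membrane protein of these granules. In the death receptor route, Fas ligand (Fasl) on the killer engages Fas on the target. Granzyme A (Gzma) is a tryptase, granzyme B (Gzmb) cleaves after aspartate and activates caspases, and granzymes C, D, E and F form a rodent group found mainly in strongly activated T cells and innate lymphocytes. Granzyme K (Gzmk) is a tryptase of effector memory CD8 T cells.

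Of 19533 cells that passed filters (511 to 2341 per tumor), 3313 lay in the lymphocyte gate, defined by at least 1 Ptprc UMI together with at least 1 UMI of Cd3d, Cd3e, Cd3g or Nkg7. There were 953 such cells from isotype tumors and 2360 from B20-4.1.1 tumors, with 48 to 689 per tumor and a median of 4455 UMIs. Because Nkg7 was part of the gate, its values are a description. A UMI marks 1 captured 3′ end, so levels are given as UMIs per 10000 UMIs of gate cells and were not divided by gene length. Shares of cells with a UMI were taken after each cell was thinned to 2500 UMIs, so that deep and shallow cells had the same chance of showing a gene. Different pools shared 94 cell barcodes over 90 pairs of tumors, at most 7 in 1 pair, and tumors of the same pool shared none.

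The gate held T cell transcripts in most cells, with Trbc2, which is not part of its definition, in 72.9% of thinned cells. Cd3g and Cd3e, seen in 79.7% and 74.4%, help to define the gate, so their values are a description. C1qa, a macrophage gene, was seen in 6.94% and Cd79a, a B cell gene, in 1.36%. Epcam, an epithelial gene, was seen in 27.1% of gate cells and in 32.9% of the other Ptprc+ cells. Fits and shares were repeated without cells carrying at least 3 UMIs of macrophage genes or 5 of epithelial genes, and the shares that changed their call are given beside their results.

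A group of 3 B20-4.1.1 tumors stood apart in the share of cells in the gate. In pool 1 tumor 3, pool 2 tumor 1 and pool 2 tumor 3 the gate held 60.4%, 65.4% and 65.0% of kept cells, against 4.79% to 25.7% in the other 12 tumors. Lef1, a transcription factor of naive T cells, was seen in 59.0% of their gate cells, against 5.25% of those of isotype tumors and 5.88% of those of the other treated tumors. The 4 listed B cell genes summed to 0.900 to 1.31 UMIs per 10000 there and 0 to 0.374 elsewhere, and the 8 natural killer cell genes to 4.48 to 5.68 there and 21.1 to 36.6 elsewhere. These 3 tumors are called lymphocyte-rich below, and the comparisons between treatments are also given without them.

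The members lie at 5 places in the genome (GRCm38, the build of the files, with GENCODE vM21 positions). Gzme (56117626 to 56120625), Gzmd (56129556 to 56132608), Gzmf (56205263 to 56211417), Gzmc (56231441 to 56234656) and Gzmb (56258838 to 56262260) follow each other on the minus strand of chromosome 14 within 144.6 kb. Gzma (113093825 to 113100981) and Gzmk (113171608 to 113225908) are neighbours on the minus strand of chromosome 13. Prf1 is on chromosome 10 (61297833 to 61304680, plus strand), Nkg7 on chromosome 7 (43437073 to 43438249, plus strand) and Fasl on chromosome 1 (161780689 to 161788495, minus strand). All 10 are annotated as protein coding, under the identifiers ENSMUSG00000023132 (Gzma), ENSMUSG00000015437 (Gzmb), ENSMUSG00000079186 (Gzmc), ENSMUSG00000059256 (Gzmd), ENSMUSG00000022156 (Gzme), ENSMUSG00000015441 (Gzmf), ENSMUSG00000042385 (Gzmk), ENSMUSG00000037202 (Prf1), ENSMUSG00000004612 (Nkg7) and ENSMUSG00000000817 (Fasl).

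The promoters are shown for the granzymes that were abundant, for Gzmd as a silent neighbour and for Prf1, because members of 1 gene cluster with much alike promoters differed widely in their counts. Each sequence runs from 250 bases before to 50 bases after the RefSeq start (GRCm38.p6), 5′ to 3′ on the gene's strand, and all 10 members had an entry. Capitals mark TGTGGT, the core motif of RUNX factors, and GTGTGA, a core of T-box factors, on either strand.
Gzmb, chr14:56262285-56262584, minus strand: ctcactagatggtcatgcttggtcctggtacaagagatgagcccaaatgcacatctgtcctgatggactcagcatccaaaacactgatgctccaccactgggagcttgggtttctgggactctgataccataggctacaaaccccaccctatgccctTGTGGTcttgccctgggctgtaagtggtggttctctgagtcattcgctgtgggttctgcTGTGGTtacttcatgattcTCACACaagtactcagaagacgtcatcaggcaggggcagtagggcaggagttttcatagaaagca
Gzmc, chr14:56234608-56234907, minus strand: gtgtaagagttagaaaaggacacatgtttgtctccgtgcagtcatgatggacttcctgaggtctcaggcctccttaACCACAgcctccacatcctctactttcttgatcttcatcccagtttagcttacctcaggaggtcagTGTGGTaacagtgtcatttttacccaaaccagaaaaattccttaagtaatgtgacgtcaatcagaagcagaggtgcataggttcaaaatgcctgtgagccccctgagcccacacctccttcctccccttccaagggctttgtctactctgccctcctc
Gzmd, chr14:56132544-56132843, minus strand: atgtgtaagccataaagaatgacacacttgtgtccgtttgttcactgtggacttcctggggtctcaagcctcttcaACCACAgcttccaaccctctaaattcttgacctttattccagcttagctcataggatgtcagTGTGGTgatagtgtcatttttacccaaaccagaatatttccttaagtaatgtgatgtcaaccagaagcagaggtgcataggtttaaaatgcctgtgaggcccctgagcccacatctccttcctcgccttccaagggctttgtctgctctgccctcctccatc
Gzma, chr13:113100932-113101231, minus strand: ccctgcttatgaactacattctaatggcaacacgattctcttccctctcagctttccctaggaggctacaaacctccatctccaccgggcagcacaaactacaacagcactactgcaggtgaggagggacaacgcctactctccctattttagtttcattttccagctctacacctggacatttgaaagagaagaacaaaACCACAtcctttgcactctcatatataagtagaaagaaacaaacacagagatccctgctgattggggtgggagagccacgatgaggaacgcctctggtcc
Prf1, chr10:61297586-61297885, plus strand: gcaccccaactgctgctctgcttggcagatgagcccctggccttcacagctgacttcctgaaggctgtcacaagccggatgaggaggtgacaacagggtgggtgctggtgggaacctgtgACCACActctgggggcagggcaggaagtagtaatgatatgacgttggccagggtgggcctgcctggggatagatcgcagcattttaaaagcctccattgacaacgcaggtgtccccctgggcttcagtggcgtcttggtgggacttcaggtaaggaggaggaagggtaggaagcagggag

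The RUNX letters were present in the windows of 8 of the 10 members, all but Gzmk and Fasl, against 16.8% of 32851 promoter windows of the same length. That number counts Gzmc, Gzmd, Gzme and Gzmf separately, although they form 1 family. Each pair of their windows shares 86.1% to 94.0% of aligned bases. Within this family Gzmc had 6338 UMIs in lymphocytes and Gzmd 2. The T-box letters were present in Gzmb, Gzmk and Nkg7, against 14.5% of all windows. Gzmb also held TGANTCA, the AP-1 motif (7.81% of all windows), and no 2 of these matches overlapped in its window. Such matches are descriptions of the letters and say nothing of binding.

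The sequences also bear on what the counts can separate. Over the coding sequence Gzmd and Gzme shared 94.8% of aligned bases, Gzme and Gzmf 86.2% and Gzmd and Gzmf 85.4%, whereas Gzmb and Gzmc shared 77.9%. In the last 400 bases of the transcript, where 3′ reads fall, no 50-base window of Gzma, Gzmb, Gzmc or Gzmk was found in another of these granzymes. Gzmd shared 21 of 351 such windows with Gzme and 22 with Gzmf, whereas Gzme and Gzmf shared 0. How reads from the shared windows were counted was not tested, so the few counts of these 3 genes are uncertain.

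Gzmb was the most counted granzyme, with 19854 UMIs in the gate, 94.3% of all its UMIs in kept cells. Gzmc followed with 6338 UMIs (96.2% in the gate), Gzma with 2961 (95.1%), Gzmf with 269 and Gzmk with 23. Gzmd and Gzme were close to absent, with 2 and 1 UMIs in the gate. Outside it, 1 Ptprc-negative cell of B20-4.1.1 pool 3 tumor 1 held 14 of the 15 Gzme UMIs of the series. Prf1 had 514 UMIs in the gate, Fasl 1317 and Nkg7 13836.

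Granzyme transcripts were concentrated in few cells, and those of Prf1 and Fasl were spread thinly. Gzma was found in 137 gate cells, of which 16 held 50% of its UMIs, with up to 189 in 1 cell. Gzmb was found in 922 cells with a median of 11 UMIs in positive cells, and cells with 10 or more UMIs carried 92.0% of its total. Prf1 was found in 365 cells, 282 of them with a single UMI, and Fasl in 797 cells, 480 of them with a single UMI. A cell without a Prf1 UMI is therefore a weaker statement than a cell without a Gzmb UMI.

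After thinning, 919 of the 3313 gate cells had a granzyme UMI, and 2394 had none. Of the positive cells, 589 showed 1 of the 7 granzymes, 291 showed 2 and 39 showed 3. Of the 2394 negative cells, 1510 came from the lymphocyte-rich tumors, so the shares that follow are those of the other 12 tumors, with 834 positive and 884 negative cells pooled. Fcer1g and Tyrobp, signalling adaptors of natural killer cells that myeloid cells also express, were seen in 90.5% and 80.7% of granzyme-positive cells, against 59.4% and 48.2% of negative ones. Trdc, the constant region of the T cell receptor delta chain, was seen in 33.7% against 14.9%, and Ncr1, a natural killer cell receptor, in 22.9% against 11.0%.

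The listed genes of innate lymphoid cells did not run one way. Xcl1, a chemokine that attracts dendritic cells, was seen in 89.7% of positive and 44.9% of negative cells of the same tumors. Il7r, the interleukin 7 receptor, was seen in 2.88% against 19.5% and Rora in 2.52% against 8.94%, while Gata3 was at 19.9% and 20.6%. Lef1 was at 1.92% and 8.94%. Over all 15 tumors the pairs were 86.0% and 21.0% for Xcl1, 87.4% and 26.3% for Fcer1g, and 4.79% and 41.4% for Lef1.

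The members were then read in the gates within the lymphocytes (pooled cells, exact binomial 95% intervals, which cover counting error only). The CD8 gate (CD3+, Cd8a or Cd8b1 detected, Cd4 not detected) held 1154 cells, the CD4 gate 550, CD3+ cells with neither coreceptor 1352, CD3+ cells with both 48 and CD3-negative Nkg7+ cells 209. Gzmb was detected in 30.0% of CD8-gate cells (27.3% to 32.7%), 28.0% of CD3+ cells with neither coreceptor (25.6% to 30.4%) and 34.9% of CD3-negative Nkg7+ cells (28.5% to 41.8%). In the CD4 gate it was detected in 1.82% (0.875% to 3.32%), which is not above the 1.34% (0.908% to 1.91%) of other Ptprc+ cells beyond counting error and was read as background. The median depth was 3980 UMIs in the CD4 gate and 6373 in the other Ptprc+ cells.

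The pooled gates mix tumors unequally, since 552 of the CD8-gate cells, 474 of the CD4-gate cells and 33 of the CD3-negative Nkg7+ cells came from the lymphocyte-rich tumors. Without these, Gzmb was detected in 54.3%, 42.3% and 38.1% of the CD8 gate, the CD3+ cells with neither coreceptor and the CD3-negative Nkg7+ cells, and in 5.26% (1.45% to 12.9%) of the 76 remaining CD4-gate cells, against 1.30% (0.849% to 1.90%) of other Ptprc+ cells.

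Gzma was detected in 16.3% of CD3-negative Nkg7+ cells (11.5% to 22.0%), against 2.95% of CD8-gate cells (2.05% to 4.09%) and 0.364% of CD4-gate cells, and without the lymphocyte-rich tumors in 14.2%, 4.65% and 0%. Gzmc was detected in 27.8% (21.8% to 34.3%), 10.1% (8.38% to 11.9%) and 0.545% of the same gates, and in 30.7%, 17.8% and 0% without those tumors. A share of 0% of 76 cells allows up to 4.74% of thinned cells with a UMI (exact interval), and before thinning these cells held 0 Gzma and 2 Gzmc UMIs. Gzmk had 22 of its 23 UMIs in the CD8 gate. Gzmf had 99 UMIs in the CD8 gate, 166 in CD3+ cells with neither coreceptor and 1 in CD3-negative Nkg7+ cells.

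Prf1 and Fasl were also detected in the CD4 gate. Prf1 was detected in 14.4% of CD3-negative Nkg7+ cells, 8.23% of CD8-gate cells, 4.96% of CD3+ cells with neither coreceptor and 5.45% of CD4-gate cells (3.71% to 7.70%), against 0.179% of other Ptprc+ cells. All 54 Prf1 UMIs of the CD4 gate were in the lymphocyte-rich tumors. The 76 CD4-gate cells of the other tumors held 0, which allows a share of up to 4.74%. In those other tumors Prf1 was detected in 13.1% of CD3-negative Nkg7+ and 5.65% of CD8-gate cells. Fasl was detected in 25.8%, 16.2%, 14.9% and 6.18% of the same 4 gates, against 0.134%, and in 15.8% (8.43% to 26.0%) of the 76 CD4-gate cells of the other tumors. The plot of detection by gate pools all 15 tumors.

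**Figure D1:**
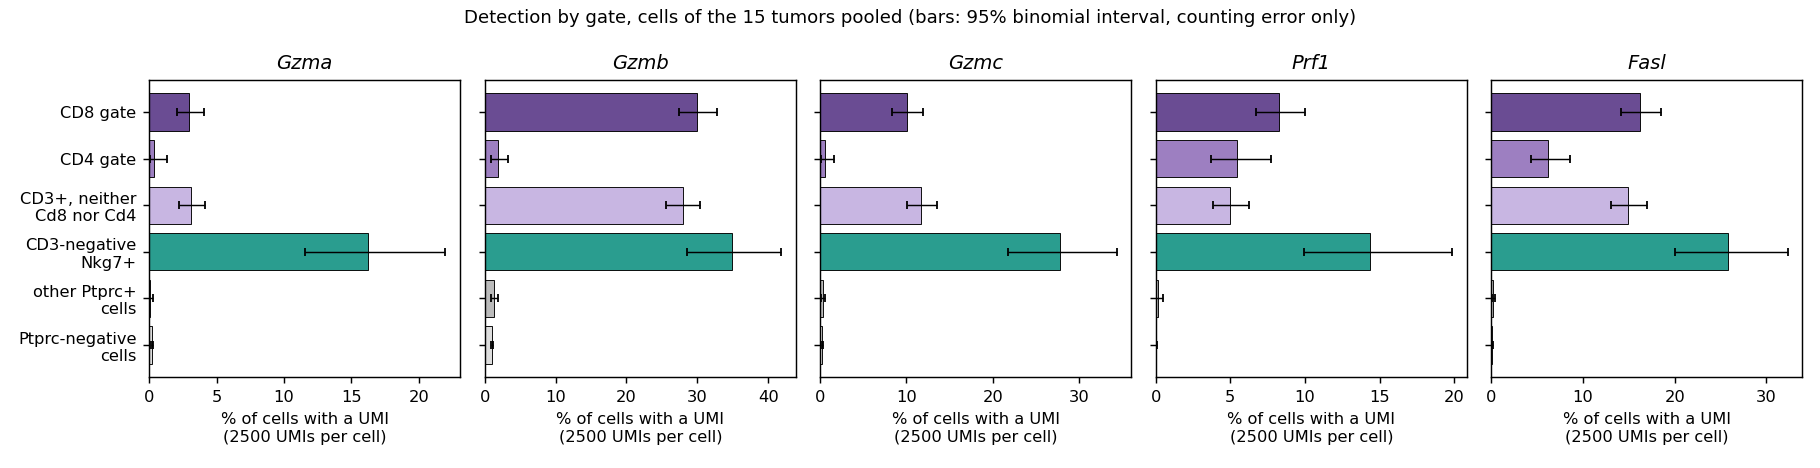
Percent of cells with a UMI of Gzma, Gzmb, Gzmc, Prf1 and Fasl (x axes, thinned to 2500 UMIs per cell) in 6 groups of cells pooled over 15 tumors, with 95% binomial intervals. Gzma is at 16.3% in CD3-negative Nkg7+ cells and 2.95% in the CD8 gate, and Prf1 is at 5.45% in the CD4 gate where Gzmb is at 1.82%.

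Within tumors, 12 had at least 10 cells in both the CD8 gate and the CD3-negative Nkg7+ gate, and 19 pairs of member and gates were tested (exact two-sided sign-flip permutation test over tumors, Benjamini-Hochberg adjustment over the 19). Gzma was detected in 15.1% ± 9.73 of CD3-negative cells and 3.33% ± 2.07 of CD8-gate cells (SD, n = 12 tumors), higher in the former in 10 of 12 tumors (exact p = 0.00342, adjusted p = 0.0649). Gzmc was detected in 27.4% ± 16.8 and 16.2% ± 16.0, higher in 9 of 12 tumors (exact p = 0.00781, adjusted p = 0.0742). Prf1 was detected in 13.8% ± 7.80 and 5.93% ± 5.24, higher in 11 of 12 (exact p = 0.0146, adjusted p = 0.0928). Gzmb went the other way in value, at 33.6% ± 14.2 and 47.2% ± 24.8, higher in the CD8 gate in 8 of 12 (exact p = 0.0625, adjusted p = 0.238). No pair passed the adjusted threshold of 0.05. The 19 include the pairs of the CD8 and CD4 gates described next, which had too few tumors to reach 0.05. These pairs made the adjustment stricter, and an adjustment without them was not run. The CD3-negative gate requires a Nkg7 UMI and the CD8 gate does not. With the CD8 gate limited to cells with a Nkg7 UMI, a setting chosen after seeing the data, the differences were 11.5 percentage points for Gzma, 10.9 for Gzmc, 7.71 for Prf1 and -15.7 for Gzmb (exact adjusted p between 0.0742 and 0.145). Without isotype pool 1, Prf1 passed (difference 9.96 percentage points over 10 tumors, exact adjusted p = 0.0371).

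The CD4 gate had at least 10 cells in 4 tumors, all treated with B20-4.1.1 and 3 of them lymphocyte-rich, where the smallest exact p is 0.125. In these, Prf1 was detected in 12.1% ± 1.89 of CD8-gate cells and 4.54% ± 3.41 of CD4-gate cells, higher in the CD8 gate in 4 of 4. Gzmb was detected in 10.4% ± 13.4 and 3.09% ± 4.16, also higher in 4 of 4.

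Members were also read in the same cells, as counts of cells with both UMIs beside the product of the 2 shares within each tumor, summed over tumors. Gzmb and Gzmc were found together in 269 cells, against a product of 152, so that 80.1% of Gzmc-positive cells also showed Gzmb. Gzma and Gzmb were found together in 76 cells against 41.9, and Gzmb and Fasl in 249 against 187. Gzma and Prf1 were the most lopsided pair by ratio among those with a product above 5, at 32 cells against 6.75.

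Prf1 did not pair with the abundant granzymes in this way. Gzmb and Prf1 were found together in 48 cells against 42.7, and Gzmc and Prf1 in 13 against 16.9. Within the CD8 gate, Gzmb and Prf1 shared 13 cells against 17.6, and Gzmc and Prf1 shared 0 against 5.02. Of 225 Prf1-positive gate cells, 28.9% showed any granzyme, where 72.3% of all gate cells showed none. Both shares pool tumors unequally and do not show whether Prf1 and granzymes pair within tumors. The lymphocyte-rich tumors had a Prf1 UMI in 8.13% to 9.28% of lymphocytes. They had a granzyme UMI in 4.55% to 5.99%, against 33.1% to 70.8% in the other tumors. Without the lymphocyte-rich tumors Gzma and Prf1 stood at 21 cells against 4.77, and Gzmb and Prf1 at 45 against 38.6.

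**Figure D2:**
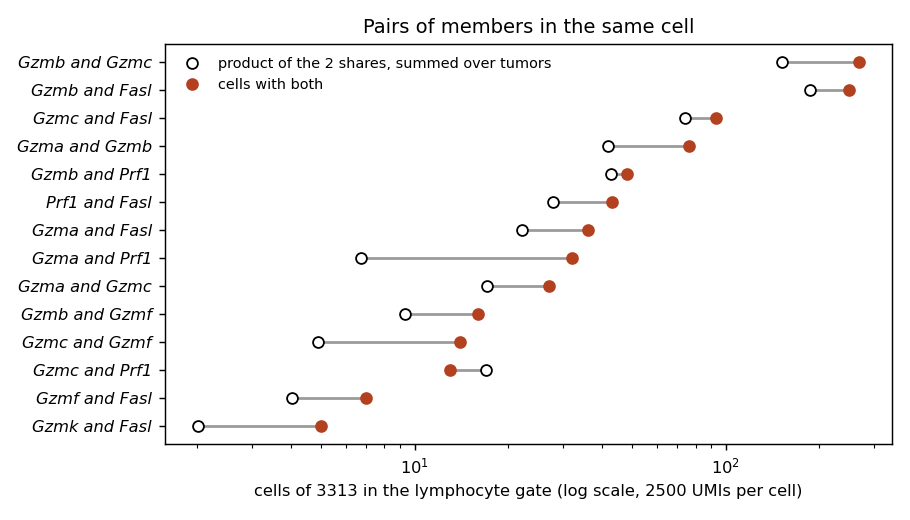
Number of lymphocyte-gate cells with UMIs of both members of a pair (filled points) beside the product of the 2 shares within each tumor, summed over tumors (open points), on a log axis. The pair Gzma and Prf1 stands at 32 cells against 6.75, and Gzmc and Prf1 at 13 against 16.9.

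The genes most like Gzma and Gzmb were ranked across single gate cells (Pearson correlation of ln(1 + UMIs per 10000) over 3313 cells after centring each tumor, among 7928 genes for Gzma and 7927 for Gzmb, which share libraries and depth). For Gzma these were Klre1 (r = 0.238) and Ncr1 (0.205), both natural killer cell receptors, Prf1 (0.204), Eomes (0.203), a T-box factor, and Gzmb (0.202). For Gzmb these were Klra5 (0.501), a lectin-like receptor, Tnfrsf9 (0.500), a costimulatory receptor of activated lymphocytes, Cd7 (0.496), Fgl2 (0.482) and Sult2b1 (0.465). Without the lymphocyte-rich tumors the order of these Gzma values changed, to Prf1 (0.239), Gzmb (0.207), Klre1 (0.181), Eomes (0.170) and Ncr1 (0.156). The Gzmb values then lay between 0.463 and 0.555.

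The main question of the design was whether the cytolytic members differed between B20-4.1.1 and isotype tumors. Gzmb ranged in the lymphocytes of isotype tumors from 6.53 to 21.4 UMIs per 10000 (median 15.3) and in those of B20-4.1.1 tumors from 0.528 to 32.0 (median 12.1). The 2 isotype pools did not overlap, with 6.53, 7.11 and 10.5 in pool 1 and 20.1, 20.8 and 21.4 in pool 2. The 3 lowest B20-4.1.1 values, 0.528, 1.03 and 2.02, were those of the lymphocyte-rich tumors, and the 3 highest, 16.9, 20.4 and 32.0, were those of pool 3. The 4 listed epithelial genes (Epcam, Krt8, Krt18 and Krt19) were also highest in gate cells of pool 3, summing to 18.8 to 35.8 UMIs per 10000 against 6.01 to 15.6 in the other 12 tumors.

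Among treated tumors Gzmc was also highest in pool 3. Of its 6338 UMIs in lymphocytes, 5286 lay outside the lymphocyte-rich tumors, against 18913 of 19854 for Gzmb. Gzmc ranged from 1.12 to 6.32 (median 2.69) in isotype tumors and from 0.912 to 15.4 (median 2.32) in B20-4.1.1 tumors. The 3 highest values of all 15 tumors, 6.88, 8.87 and 15.4, belonged to B20-4.1.1 pool 3. Gzma ranged from 0.439 to 5.58 (median 2.37) in isotype tumors and from 0.0846 to 5.25 (median 1.20) in B20-4.1.1 tumors, with 2 treated tumors, both lymphocyte-rich, below the isotype range and the rest within it.

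Gzmf was near 0 in isotype tumors, at 0 to 0.0475 UMIs per 10000, and reached 0.517, 0.921 and 2.02 in 3 B20-4.1.1 tumors, 1 of pool 2 and 2 of pool 3. Its 252 UMIs in B20-4.1.1 tumors lay in few cells, with 2 cells holding 50% of the total of 269. Gzmk was seen in 2 of 6 isotype and 3 of 9 B20-4.1.1 tumors, at up to 0.0850 and 0.0650. Gzmd was seen at 1 UMI in each of 2 B20-4.1.1 tumors of pool 3 and Gzme at 1 UMI in 1 of them. A count of 0 allows up to 0.00976 UMIs per 10000 in the deepest and 0.0829 in the shallowest set of lymphocytes (3 counts each).

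Prf1, the pore-forming protein, did not follow the granzymes. It ranged from 0.133 to 0.323 (median 0.214) in isotype tumors and from 0.0697 to 0.415 (median 0.181) in B20-4.1.1 tumors. Its 3 lymphocyte-rich tumors stood at 0.335, 0.361 and 0.372, above every isotype tumor and below only B20-4.1.1 pool 2 tumor 2 (0.415). Fasl ranged from 0.747 to 1.37 (median 1.00) in isotype tumors and from 0.198 to 1.31 (median 0.669) in B20-4.1.1 tumors, with the lymphocyte-rich tumors lowest at 0.198, 0.227 and 0.302. Nkg7 ranged from 6.46 to 13.3 and from 2.85 to 12.5, with the same 3 tumors lowest.

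**Figure D3:**
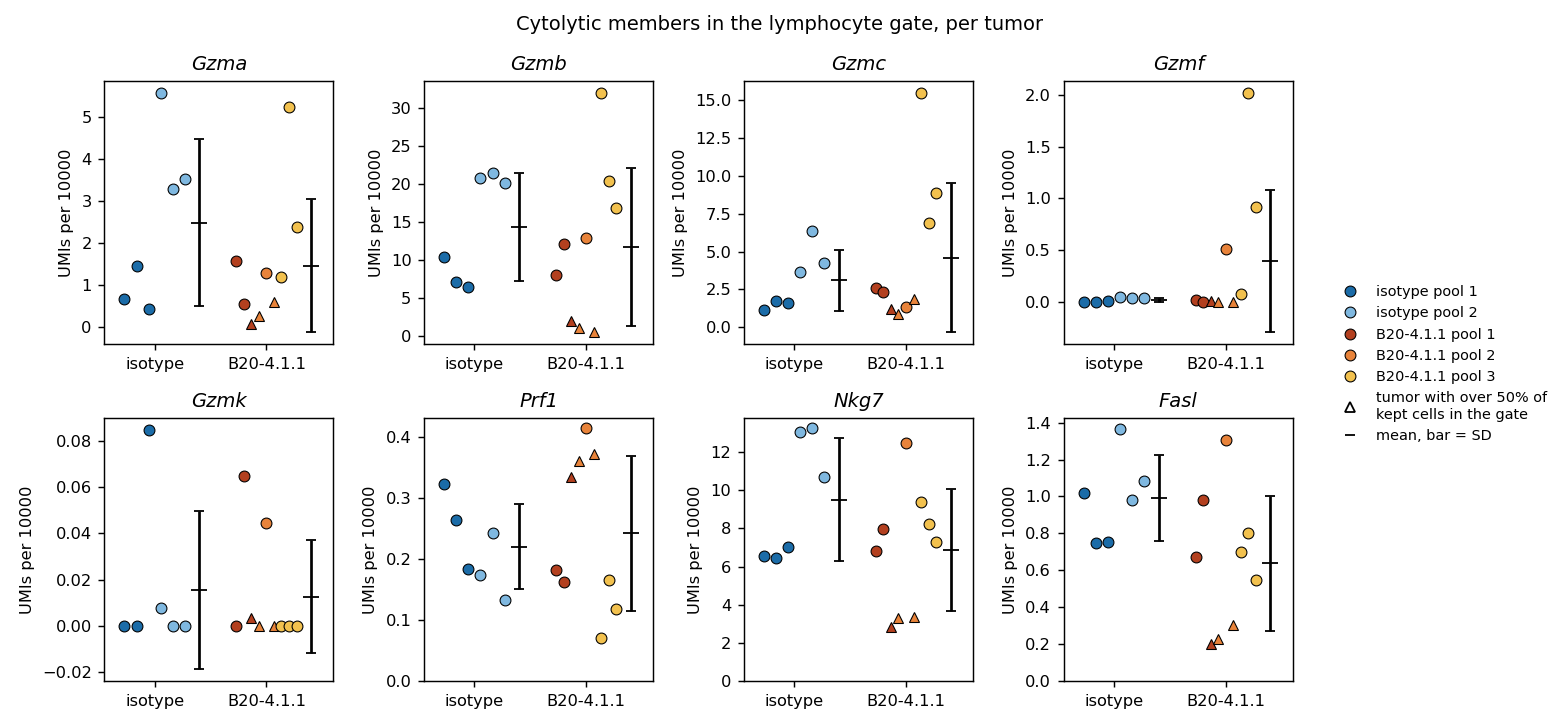
UMIs per 10000 UMIs of lymphocyte-gate cells (y axes) for 8 members in each of 6 isotype and 9 B20-4.1.1 tumors, coloured by pool, with mean and SD. The triangles, tumors with over 50% of kept cells in the gate, are lowest for Gzmb (0.528 to 2.02) and Fasl (0.198 to 0.302) and among the highest for Prf1 (0.335 to 0.372).

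On summed counts per tumor, 0 of 9012 genes passed an adjusted p of 0.05 between B20-4.1.1 and isotype lymphocytes (edgeR quasi-likelihood test, 0% called), with 1078 at an unadjusted p under 0.05. DESeq2 called 15 genes and limma voom with the pool as a random block called 0. Without B20-4.1.1 pool 3 edgeR called 138 genes and without isotype pool 2 it called 50, so the count turned on single pools. Of the members, Gzma, Gzmb, Gzmc, Prf1, Nkg7 and Fasl passed the low-count filter, and Gzmd, Gzme, Gzmf and Gzmk did not.

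No tested member was called. The log2 fold change (B20-4.1.1 against isotype) was -0.24 ± 0.64 (SE) for Gzmb, 0.61 ± 0.60 for Gzmc and -0.80 ± 0.67 for Gzma, with adjusted p between 0.679 and 0.944 in edgeR. It was 0.43 ± 0.35 for Prf1 (edgeR adjusted p = 0.666) and -0.59 ± 0.33 for Fasl (edgeR adjusted p = 0.485). Beside these, the median over all 9012 genes was 0.03. Without the lymphocyte-rich tumors Gzmb stood at 0.27 ± 0.35 and Prf1 at -0.06 ± 0.35, each with its sign turned, Gzma at -0.34 ± 0.56 and Fasl at -0.20 ± 0.21. Gzmc was then at 1.01 ± 0.54 (edgeR adjusted p = 0.643), but without B20-4.1.1 pool 3 it was at -0.79 ± 0.39. Leaving out cells with myeloid or epithelial markers gave 0.61 ± 0.70 for Gzmc and -0.13 ± 0.67 for Gzmb. The standard errors of these granzymes, 0.60 to 0.67 on the log2 scale, limit what 15 tumors could show.

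In the CD8 gate, fitted in 6 isotype and 8 B20-4.1.1 tumors with at least 20 such cells, 2 of 5225 genes were called (0.0383%), both lower in B20-4.1.1 tumors and neither a member. They were Hells, a chromatin remodeler of dividing cells (log2 fold change -1.29 ± 0.17), and Nr4a2, a nuclear receptor induced by antigen receptor signalling (-1.93 ± 0.29), named here after their values were seen. The count was 210 without B20-4.1.1 pool 3, 10 without B20-4.1.1 pool 1, 5 without isotype pool 2, 0 without isotype pool 1 and 30 with DESeq2.

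The CD8 gate accepted either Cd8a or Cd8b1, and their balance differed between groups of tumors. Cd8a was seen in 26.3% and Cd8b1 in 7.45% of all lymphocyte-gate cells of isotype tumors. These were 21.3% and 30.3% in the lymphocyte-rich tumors and 29.4% and 15.3% in the other treated tumors. Kinds of cell within the CD8 gate were not separated, so its values may compare unlike cells. CD8-gate Gzmb ranged from 7.81 to 30.7 UMIs per 10000 (median 20.3) in isotype tumors. In all 9 B20-4.1.1 tumors it ranged from 0.944 to 42.6 (median 18.1), with the lymphocyte-rich tumors at 0.944, 1.09 and 2.77 and all others at 14.1 or more. Its log2 fold change was -0.26 ± 0.62, and 0.35 ± 0.32 without those tumors (edgeR adjusted p = 0.905 and 0.832). Gzma was at -1.78 ± 0.86 in edgeR (adjusted p = 0.332), Gzmc at 0.55 ± 0.92 and Fasl at -0.54 ± 0.43. Without the lymphocyte-rich tumors these were at -1.06 ± 0.71, 1.13 ± 0.76 and 0.05 ± 0.24. Prf1 did not pass the filter in this gate with all pools. It passed the filter without isotype pool 1, at 1.71 ± 0.72, and without isotype pool 2, at 0.89 ± 0.82 (edgeR adjusted p = 0.440 and 0.657). The CD3-negative Nkg7+ cells reached 20 cells in only 1 isotype and 2 B20-4.1.1 tumors and could not be fitted.

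**Figure D4:**
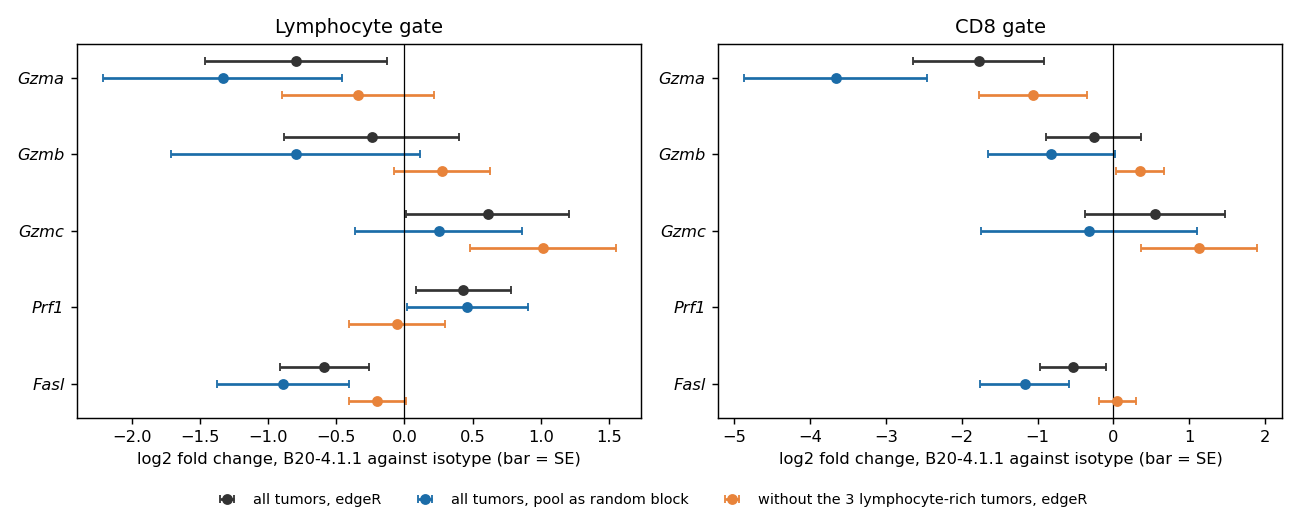
Log2 fold change of members between B20-4.1.1 and isotype tumors (x axes, bars are standard errors) in the lymphocyte gate and the CD8 gate, from edgeR, from voom with pool as a random block, and from edgeR without the 3 lymphocyte-rich tumors. Prf1 did not pass the filter in the CD8 gate in these settings. Gzmb moves from -0.24 to 0.27 in the lymphocyte gate when those tumors are left out, and no member was called.

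As a share of cells, a granzyme UMI was found in 33.1% to 64.9% of lymphocytes (median 47.2%) in isotype tumors and in 4.55% to 70.8% (median 36.9%) in B20-4.1.1 tumors. The 3 lymphocyte-rich tumors held 4.55%, 5.66% and 5.99%, and the other 6 held 33.9% to 70.8%, a range that overlapped the isotype tumors. The means were 48.4% ± 13.1 (SD, n = 6) and 32.6% ± 23.3 (SD, n = 9), a difference of -15.9 percentage points (exact two-sided permutation test over 5005 assignments, p = 0.154, adjusted p = 0.231 over 3 shares). The difference was -2.27 without the lymphocyte-rich tumors (exact p = 0.790) and -27.5 without B20-4.1.1 pool 3 (exact p = 0.0152, adjusted p = 0.0325). Without thinning the means were 53.4% and 38.5%.

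Counted against all kept cells, the groups lay close together. Granzyme-positive lymphocytes made up 1.85% to 10.4% of cells (median 4.10%) in isotype tumors and 2.45% to 9.48% (median 3.91%) in B20-4.1.1 tumors. The means were 4.81% ± 3.22 (SD, n = 6) and 4.76% ± 2.20 (SD, n = 9), a difference of -0.0495 percentage points (exact permutation p = 0.972). The lymphocyte-rich tumors, lowest for granzyme-positive cells among lymphocytes, held 2.95%, 3.42% and 3.91% on this scale, within the range of the other tumors. Neither scale separated the groups beyond the spread between tumors.

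Cells with both a granzyme and a Prf1 UMI were 2.31% to 5.71% of lymphocytes (median 3.47%) in isotype tumors and 0% to 4.17% (median 1.80%) in B20-4.1.1 tumors. The value of 0 came from 115 cells of pool 1 tumor 1. Without thinning the value there was 4.35%. The difference of the means, 3.62% ± 1.33 (SD, n = 6) and 1.87% ± 1.42 (SD, n = 9), was -1.75 percentage points (exact permutation p = 0.0340, adjusted p = 0.102 over 3 shares), with 7 of 9 B20-4.1.1 tumors below the isotype mean. It was -1.26 (exact p = 0.160) without the lymphocyte-rich tumors and -1.69 (exact p = 0.188) without thinning. The adjusted p fell below 0.05 in the exact test without B20-4.1.1 pool 3 (0.0325), with the gate set on thinned counts (0.0330) and without cells carrying myeloid or epithelial markers (0.0258). With pools as the unit, of which there are 5, the smallest exact p is 0.1 and the value was 0.2.

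**Figure D5:**
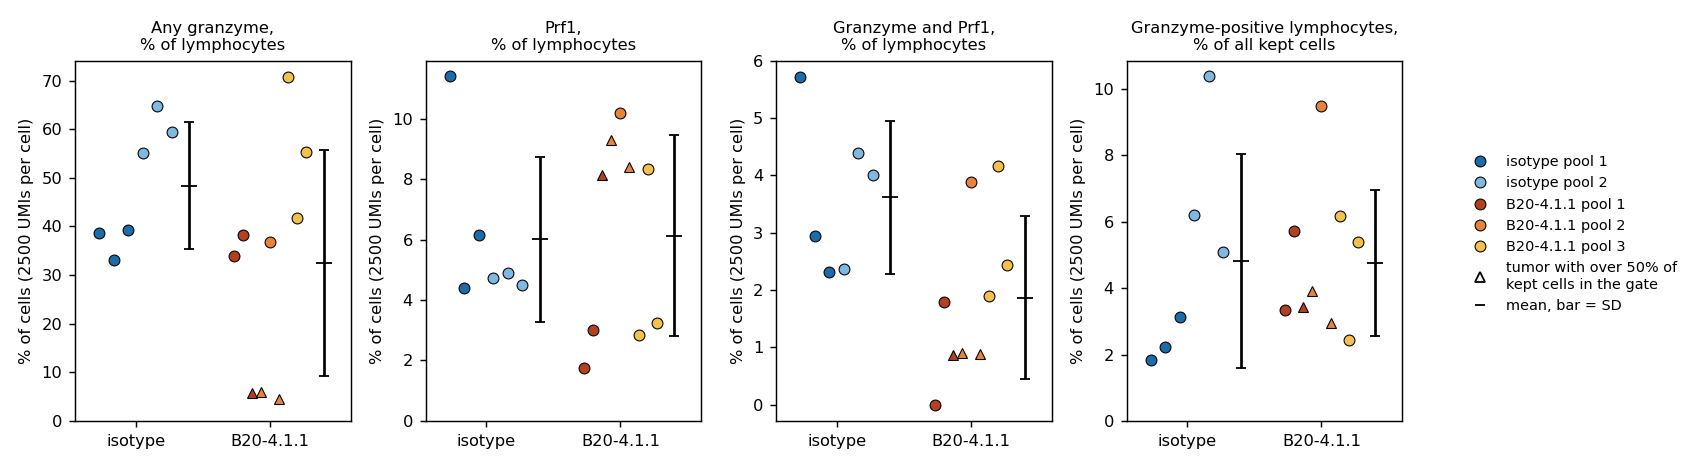
Percent of lymphocyte-gate cells with any granzyme UMI, with a Prf1 UMI and with both, and granzyme-positive lymphocytes as a percent of all kept cells (y axes, thinned to 2500 UMIs per cell), by tumor, with mean and SD. The lymphocyte-rich tumors (triangles) lie at 4.55% to 5.99% in the first panel, 8.13% to 9.28% in the second and 2.95% to 3.91% in the last.

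Member by member, 9 differences in the share of lymphocytes with a UMI were tested in the same way and none passed after adjustment over the 9 tests. Fasl had the smallest exact p, 0.0619, at 23.6% ± 6.41 (SD, n = 6) under isotype and 15.3% ± 8.35 (SD, n = 9) under treatment, and the difference of -8.38 percentage points became -3.27 without the lymphocyte-rich tumors. Gzmb was at 44.9% ± 12.4 and 28.6% ± 21.7 (exact permutation p = 0.120), and Gzma at 5.57% ± 1.14 and 3.76% ± 2.58 (exact permutation p = 0.133). Without B20-4.1.1 pool 3, Gzma (difference -3.09, exact p = 0.00433) and Gzmb (-27.3, exact p = 0.0108) passed. All 3 lymphocyte-rich tumors remained in that comparison, with a Gzma UMI in 1.16%, 2.40% and 1.22% of lymphocytes. Their part in these differences was not tested.

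Prf1 was at 6.01% ± 2.73 in the 6 isotype tumors and 6.13% ± 3.33 in the 9 treated ones (exact permutation p = 0.944). In the lymphocyte-rich tumors it was detected in 8.13%, 9.28% and 8.39% of lymphocytes, where Gzmb was detected in 3.48%, 3.59% and 2.27%. No other tumor had more Prf1-positive than Gzmb-positive lymphocytes.

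The other genes of the cytolytic pathway gave no call in the lymphocyte fit. Of 45 listed genes, 44 are in the files and 38 passed the filter, 15 with a higher and 23 with a lower estimate in B20-4.1.1 tumors, at a median of -0.12 on the log2 scale against 0.03 over all genes. Without the lymphocyte-rich tumors 23 of 36 were higher, with a median of 0.14. Granule loading and granzyme activation genes were near 0, with Srgn, the serglycin core, at -0.20 ± 0.18 and Ctsc, cathepsin C, at 0.14 ± 0.31. Serpinb9, the intracellular inhibitor of granzyme B, was at -0.08 ± 0.35 and Rab27a, which docks granules for release, at -0.21 ± 0.26.

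Of the T-box transcription factors of cytotoxic lymphocytes, Tbx21 was at -0.99 ± 0.38 and Eomes at -0.34 ± 0.29 (edgeR adjusted p = 0.364 and 0.682). Tbx21 was at -0.46 ± 0.21 without the lymphocyte-rich tumors. Among cytokines of these cells, Ifng, interferon gamma, was at -0.52 ± 0.36 and Xcl1 at -0.63 ± 0.46, and both lay nearer 0 without those tumors, at -0.11 ± 0.29 and -0.17 ± 0.22. The sum of the 3 neutrophil genes S100a8, S100a9 and Csf3r in gate cells varied from 0.129 to 146 UMIs per 10000 between tumors, and its part in these estimates was not tested.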

How the data were processed

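Single-cell UMI counts were deposited by the authors as 1 matrix per tumor, made with Cell Ranger (6.1.2 in the matrix headers) on mm10, with droplets assigned to tumors by multiplexing oligonucleotides; bcl2fastq and Seurat 4.3.0 are also named in the submitters' processing notes. The deposited counts were not normalized and included 30340 cells; total UMIs per tumor ranged from 4014509 to 23726246. Cells with 2500 to 27500 UMIs and at most 20% mitochondrial UMIs were kept (19533), and no doublet caller was run. Thinning to 2500 UMIs was done once with a fixed seed. Counts were summed per tumor and gate and tested with edgeR 4.0.16 (TMM, filterByExpr, quasi-likelihood, Benjamini-Hochberg), after a test on simulated data. Standard errors given for edgeR were derived, as the absolute log2 fold change divided by the square root of the quasi-likelihood F. DESeq2 1.42.0 and limma 3.58.1 (voom, pool as random block) were alternatives. Each tumor came from a separate mouse and was the replicate. Shares were compared by exact permutation of tumors. Named genes were the 10 members, up to 8 pathway genes by role, and the 5 genes most correlated with Gzma and with Gzmb. Members and lists were chosen with earlier results of these data known. The hypoxia class of treated tumors was not used here, since the labels do not give it. Intervals cover counting error only. One item is not reported here.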

Additional observations from a re-analysis of the deposited data

Results flagged for a closer look

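Dixon's ratio was applied to 41 sets of per-tumor values in the lymphocyte gate, and 7 held a tumor far from the rest of its group. Its rate of about 1 flag in 20 groups holds for normally distributed values, and several sets here were mostly 0. A set with a UMI in a single tumor is always flagged, so the number of flags cannot be compared with chance. B20-4.1.1 pool 3 tumor 2 stood above the other 8 treated tumors for Gzma, at 5.25 UMIs per 10000 (others 0.0846 to 2.39), and for Gzmf, at 2.02 (others 0 to 0.921). It had 48 gate cells, the fewest of all tumors. B20-4.1.1 pool 3 tumor 3 was the only treated tumor with a thinned Gzmd UMI (0.813% of lymphocytes) and the only one with a Gzme UMI (0.0107 UMIs per 10000), each from 1 UMI. Gzmk was detected in 2.40% of lymphocytes of B20-4.1.1 pool 1 tumor 2 (others 0% to 0.971%) and stood at 0.0850 UMIs per 10000 in isotype pool 1 tumor 3 (others 0 to 0.00791). Prf1 was detected in 11.4% of the 70 lymphocytes of isotype pool 1 tumor 1, against 4.41% to 6.15% in the other isotype tumors.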

How the results depend on the processing

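No paired analysis was possible because the numbers of the pools only name them in order of deposit and each pool holds 1 treatment. The fit of CD3-negative Nkg7+ cells was not run, since too few tumors had enough such cells. No member was called under any setting. The number of genes called in lymphocytes (0) was 15 with DESeq2, 2 with sums per pool, 2 with no filter on low counts, 2 without cells carrying myeloid or epithelial markers, and 0 to 138 when 1 pool was left out. That in the CD8 gate (2) was 30 with DESeq2, 1 without the lymphocyte-rich tumors and 0 to 210 when 1 pool was left out. The count of member shares past the adjusted threshold (0) was 0 to 2, and that of differences between gates (0) was 0 to 1, when 1 pool was left out. The difference in the share of lymphocytes with a granzyme lay between -27.5 and -4.40 percentage points when 1 pool was left out. For a granzyme with Prf1 it lay between -2.23 and -1.26, and was -2.25 with the gate on thinned counts and -2.83 without marker-carrying cells. For granzyme-positive lymphocytes among all cells it lay between -2.47 and 2.37, and was 0.585 without thinning and 0.618 without the lymphocyte-rich tumors.

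Without the lymphocyte-rich tumors, log2 fold changes turned sign for Gzmb (0.27 in lymphocytes, 0.35 in the CD8 gate), Fasl in the CD8 gate (0.0497), Prf1 (-0.0552), Srgn (0.0166) and Serpinb9 (0.35). With 1 pool left out they ranged in lymphocytes from -1.75 to 0.83 for Gzma, -1.20 to 0.67 for Gzmb, -0.79 to 1.76 for Gzmc, -0.0821 to 0.72 for Prf1, -0.10 to 0.36 for Ctsc, -0.39 to 0.12 for Serpinb9, -0.43 to 0.0018 for Rab27a and -0.83 to 0.0347 for Ifng. In the CD8 gate they ranged from -2.48 to 0.0810 for Gzma, -0.89 to 0.60 for Gzmb and -1.33 to 3.63 for Gzmc, and Gzmc was at -0.32 with the pool as a random block. Ctsc was at -0.16 without marker-carrying cells, -0.16 with the stricter gate, -0.0555 with the pool as a random block and -0.0057 with sums per pool. The difference in the share of lymphocytes with Prf1, 0.112 percentage points, was -0.253 with the gate on thinned counts, -0.577 from 1000 UMIs per cell, -0.295 with the stricter gate, -0.992 without marker-carrying cells, -1.12 without the lymphocyte-rich tumors and -1.47 to 1.43 when 1 pool was left out. That of Gzmc was -0.423 and that of Gzmk -0.184 from 1000 UMIs per cell, and that of Gzmf -0.201 without marker-carrying cells. With 1 pool left out these ranged from -6.91 to 8.76 for Gzmc, -0.325 to 1.61 for Gzmf and -0.0450 to 0.378 for Gzmk. Between gates, Fasl (CD3-negative Nkg7+ minus CD8) was at -0.598 with the CD8 gate limited to Nkg7+ cells (added after seeing the data), -3.93 without thinning, -3.46 without the lymphocyte-rich tumors and -1.55 to 3.10 when 1 pool was left out, and Gzmf (CD8 minus CD4) was at -0.0374 without thinning. The cause of these changes was not tested. Of the other values, 415 for single genes and 74 for counts and shares kept their direction and side of the threshold. With 6 isotype tumors in 2 pools, and 48 to 689 lymphocytes per tumor, differences of the size of that between the isotype pools could not be assigned to treatment.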
